A study of Mus musculus with 2 samples.

Results

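Mid-protamine barcodes were the droplets of the wild-type (WT) mouse testis library in which transcripts of the protamines Prm1 and Prm2 took at least 3% and under 10% of the UMIs (unique molecular identifiers, the tags by which captured transcripts are counted once). The members were thus chosen by a measured value, their protamine share. They also had at least 2000 UMIs, at least 500 detected genes and under 10 UMIs of Piwil1, a gene of meiotic and early round stages. The rule found 250 of the 2992 WT barcodes of at least 2000 UMIs (8.36%, 7.39% to 9.41%) and of the 5415 WT barcodes in all (4.62%, 4.07% to 5.21%), out of 12533 barcodes in both libraries of the series. They were set against 1451 low-protamine WT barcodes (under 2%) and 1114 high-protamine WT barcodes (10% or more), while 177 barcodes between 2% and 3% entered neither comparison. The study profiled dissociated whole testis by droplet single-cell RNA sequencing in 1 library from male Rad21l-/- mice (RAD21L KO, which lack a cohesin subunit of meiosis) and 1 from male Rad21l+/+ mice (WT), aged 55 days, and the labels do not say how many mice went into each. Rad21l itself had 3 UMIs in mid-protamine, 64 in low-protamine and 0 in high-protamine barcodes, so it gives no check there. By the same rule the RAD21L KO library gave 0 of 4227 barcodes of at least 2000 UMIs. This allows a share of up to about 0.0710%, approximated as 3 divided by 4227. None of these barcodes had more than 0.0434% of its UMIs from Prm1 and Prm2. All values below are from 1 WT library, so no test was run, and cells of 1 library are not replicates. Ranges in parentheses are exact 95% intervals for counting error only (Clopper-Pearson for shares, Poisson for levels, conditional binomial for ratios).

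During the last phase of sperm formation, the haploid spermatid stops transcription, packs its DNA and remodels its cytoplasm. Histones give way first to the transition proteins Tnp1 and Tnp2 and then to the protamines, and the messages for these proteins are made in round spermatids and stored for later translation. Round spermatids build the acrosome, the secretory cap that opens at fertilization. Elongating spermatids assemble the tail with its outer dense fibres, fibrous sheath and mitochondrial sheath.

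The mid-protamine barcodes lay in a trough between a large low-protamine and a large high-protamine population. In bins of 1% of the protamine share there were 963 barcodes under 1%, 488 from 1% and 177 from 2%. The bins from 3% to 10% held 59, 23, 23, 15, 30, 38 and 62 barcodes, and those from 10% and 11% held 113 and 188. Since the rule sets these bounds, the count is a description of the library. The barcodes next to the bounds had 2.996% and 3.019% at the lower bound and 9.993% and 10.005% at the upper. The limits on Piwil1 and on genes removed no barcode in the range, with 165 members at 0 Piwil1 UMIs, 67 at 1 and the highest at 6. A further 201 WT barcodes had a protamine share in the range but fewer than 2000 UMIs.

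**Figure D1:**
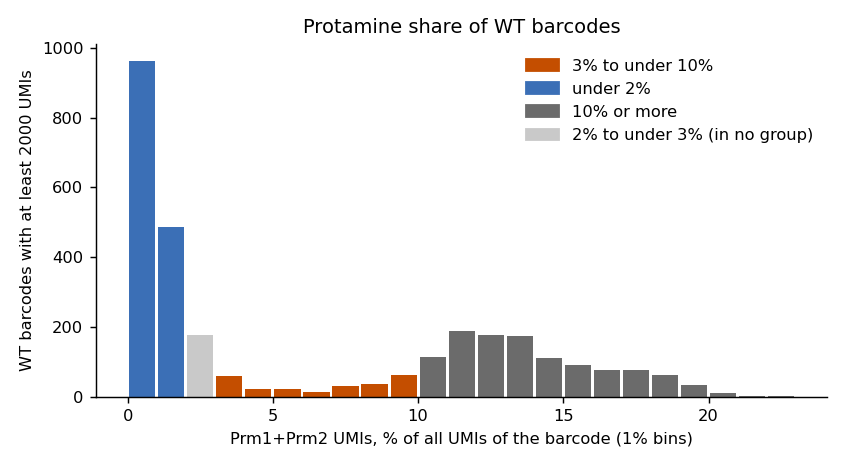
Number of WT barcodes of at least 2000 UMIs (y axis) by the share of their UMIs from Prm1 and Prm2 (x axis, bins of 1%). Bars are coloured by group, and the 250 mid-protamine barcodes fill the trough, with 15 barcodes in the lowest bin at 6% to 7%.

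Depth differed between the groups. Mid-protamine barcodes had a median of 3388.5 UMIs (lowest 2003, highest 50357), against 6510 in low-protamine and 5819 in high-protamine barcodes. Thinned to 2000 UMIs each, their median was 1158 genes, against 1371 in low-protamine and 870 in high-protamine barcodes (1733, 3195 and 1755 genes without thinning). A group of 39 mid-protamine barcodes with at least 10000 UMIs held 47.9% of the group's 1477309 UMIs, and the group's levels lean toward them. A level in square brackets is that of the other 211 members, given where it differed by over 1.5 times from that of all 250 or where the side of a comparison turned (39 of 137 genes). Those 211 include all 65 barcodes with Prm2 at 60% or more of the Prm1 and Prm2 UMIs, described below. The 39 deep ones include none. Levels in brackets, and counts without the deep members, thus differ from the rest in kind as well as in depth, and the 2 were not separated. Doublets were not called, and 14 barcode sequences occur in both libraries, 1 of them in the mid-protamine group. Levels are given in CPM, UMIs of a gene per 1000000 UMIs other than those of Prm1 and Prm2, because the rule fixes the share of those 2 genes.

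The promoters of Prm1, Prm2, Tnp1 and Tnp2 are shown because these genes define and mark the group, and because the windows of Prm1, Prm2 and Tnp2 lie within 8.32 kb of each other on chromosome 16. Each line gives the 150 bases before the RefSeq start on the gene's strand (GRCm38.p6, minus strand in each case), with matches to TGANNTCA in capitals. This 8-base pattern reads the same on both strands and covers the cAMP response element that CREM, a transcription factor of spermatids, is known to bind.
Prm1, chr16:10796824-10796973: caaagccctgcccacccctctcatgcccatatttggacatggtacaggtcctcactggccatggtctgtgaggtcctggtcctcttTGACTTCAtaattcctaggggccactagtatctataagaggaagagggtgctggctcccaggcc
Prm2, chr16:10792106-10792255: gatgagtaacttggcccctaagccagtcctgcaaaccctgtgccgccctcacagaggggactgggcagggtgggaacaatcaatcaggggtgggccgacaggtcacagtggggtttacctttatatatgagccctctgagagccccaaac
Tnp1, chr1:73015900-73016049: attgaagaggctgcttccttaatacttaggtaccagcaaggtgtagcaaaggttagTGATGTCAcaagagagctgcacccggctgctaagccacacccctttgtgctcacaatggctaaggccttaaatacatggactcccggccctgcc
Tnp2, chr16:10788656-10788805: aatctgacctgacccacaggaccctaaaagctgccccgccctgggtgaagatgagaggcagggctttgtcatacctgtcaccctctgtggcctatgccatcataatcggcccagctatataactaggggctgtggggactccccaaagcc
The Prm1 window held 1 match, starting 64 bases before the start, and the Tnp1 window held 1 match, starting 94 bases before it. The Prm2 and Tnp2 windows held none. Of 32851 mouse promoters in the same table, 8.37% had a match in the same 150 bases, and a match describes the letters only.

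The label of spermatids was checked against marker levels, since Tnp1 and Tnp2 were detected in every barcode of the low-protamine group too and so mark no cell by detection. Tnp1 stood at 19147, 925 and 37007 CPM and Tnp2 at 23026, 879.6 and 41727 CPM in mid-protamine, low-protamine and high-protamine barcodes. The 19 round spermatid markers together took 0.568% of UMIs other than Prm1 and Prm2, against 0.172% in low-protamine and 0.561% in high-protamine barcodes. A label of rising protamine transcripts was not borne out for all of them, since the group held barcodes of different kinds. In 185 barcodes, Prm2 made up 29.7% to 58.9% of the Prm1 and Prm2 UMIs, with a median of 42.5%. In the other 65 (26.0%, 20.7% to 31.9%), called Prm2-weighted here, it made up 60% to 96.5%, with a median of 84.8%. The line at 60% was drawn after the values were seen, and 11 barcodes lay between 55% and 70%.

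Transition protein transcripts separated the same barcodes. Prm2-weighted barcodes had a median of 0.0709 Tnp1 and Tnp2 UMIs per Prm1 and Prm2 UMI (lowest 0.0270, highest 0.379), against 0.665 in the other 185 (lowest 0.0591, highest 0.919). The ratio was under 0.3 in 63 of the 65 Prm2-weighted barcodes and in 5 of the other 185, although the full ranges overlapped. Tnp1 and Tnp2 took a median of 0.676% of the remaining UMIs in Prm2-weighted barcodes and 4.18% in the others. Smcp, which encodes a protein of the sperm mitochondrial capsule, took 1.88% and 0.430%. Prm2-weighted barcodes were shallower (median 2958 UMIs, against 3780 in the others), had a higher protamine share (median 8.53%, against 5.97%) and included none of the 39 deep barcodes. They were 53 of 145 barcodes (36.6%) from 6% to 10% of protamine share and 12 of 105 (11.4%) from 3% to 6%.

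**Figure D2:**
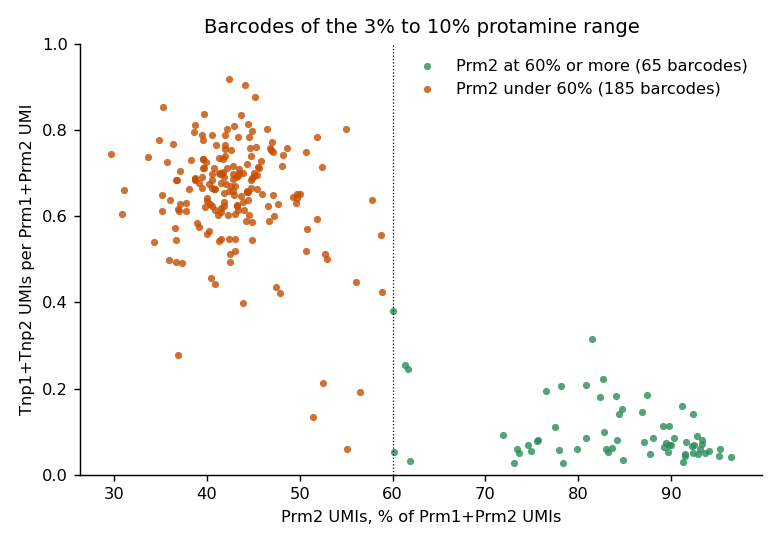
Each point is 1 of the 250 mid-protamine barcodes, with the Prm2 share of its Prm1 and Prm2 UMIs in percent (x axis) and its Tnp1 and Tnp2 UMIs per Prm1 and Prm2 UMI (y axis). The 65 barcodes right of the dotted line at 60% have a median ratio of 0.0709, and the 185 left of it have a median of 0.665.

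Prm2-weighted barcodes also occurred among high-protamine barcodes, where 276 of 1114 (24.8%, 22.3% to 27.4%) had Prm2 at 60% or more. Their median ratio of transition protein to protamine UMIs was 0.0399 and their median Smcp share 2.15%. Smcp stood at 19668 CPM in Prm2-weighted mid-protamine barcodes, 22158 CPM in Prm2-weighted high-protamine barcodes and 4753 CPM in the other 185 mid-protamine barcodes. Gsg1, a gene named for its germ cell expression, stood at 11398, 13519 and 3736 CPM in the same order.

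Of 3959 genes compared between the kinds, 371 (9.37%) were at least 2-fold higher and 1260 (31.8%) at least 2-fold lower in the Prm2-weighted barcodes. These genes describe the split, which was drawn on the same cells. The median gene was lower in the Prm2-weighted barcodes by a log2 of −0.41. The leading higher genes were Azin2, Phospho1, Rundc3a, Car2, Fem1c, Hk1, Tppp2, Osbp2, Dbil5, Tssk6, Smcp and Mfap3l. Azin2, a regulator of polyamine synthesis, stood at 1050.5 CPM in Prm2-weighted barcodes and 181 CPM in the others. Car2, a carbonic anhydrase, stood at 1714 and 367 CPM. Hk1, the hexokinase that begins glycolysis, stood at 2621 and 575 CPM, and Tssk6, a kinase needed for sperm chromatin packing, at 3228 and 774 CPM. The leading lower genes were Srcin1, Ccin, H2al3, Spanxn4, Hmgb1-rs17, Iqcf6, Ccdc185, Cypt1, Fam71b, Glt6d1, Cntn1 and Spata31d1c. Cypt1, an X-linked gene of the spermatid nucleus, stood at 85.9 CPM in Prm2-weighted barcodes and 799 CPM in the others, and H2al3, a testis histone variant gene, at 43 and 455 CPM. H2al3, Spanxn4, Cypt1 and Spata31d1c belong to families of similar copies, so their counts are uncertain.

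Within the 185 barcodes that were not Prm2-weighted, transition protein and linker histone genes stood higher toward the top of the range than at its bottom. The protamine share and the share of Tnp1 and Tnp2 in the remaining UMIs had a Spearman correlation of 0.910 and a Pearson correlation of 0.917 over these barcodes, and of 0.235 and 0.359 over all 250. These describe cells of 1 library that share their depth and denominator. Tnp1 stood at 11385 CPM at 3% to 4%, 17765 CPM at 5% to 6%, 24565 CPM at 7% to 8% and 31809 CPM at 9% to 10%. Tnp2 stood at 13212, 22137, 30301 and 38648 CPM at the same steps. H1f7, a linker histone gene of spermatids, stood at 1277, 1767, 1813 and 2201 CPM. Of these barcodes, 39 had at least 10000 UMIs and 146 fewer. Tnp2 stood at 11768, 20144 and 39096 CPM at 3% to 4%, 5% to 6% and 9% to 10% in the shallower ones, and at 14344, 22685 and 38363 CPM in the deep ones. Beyond the range, Tnp2 was highest at 12% to 15% (55570.1 CPM) and stood at 39726 CPM from 15% upward, and Tnp1 at 45906 and 42040.5 CPM.

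H1f9, the spermatid linker histone HILS1, had its highest levels at the top of the range and just past it. It stood at 881 CPM at 1% to 2%, 2203 CPM at 3% to 4%, 4132 CPM at 9% to 10% and 4155 CPM at 10% to 12%, and at 695 CPM from 15% upward. At 3% to 4% the 46 barcodes under 10000 UMIs stood at 1049 (873 to 1250.1) CPM and the 9 deep ones at 3108 (2834 to 3402) CPM, while at 9% to 10% the 25 shallower ones stood at 3839 (3498 to 4204) CPM and the 10 deep ones at 4318 (4028 to 4623) CPM. The bin at 6% to 7%, which held 11 of these barcodes, stood at 1797 (1463 to 2183) CPM, and at 2451 (1992 to 2984) CPM without the 1 barcode that had most UMIs of somatic markers. Cypt1 had a like course, with 502 CPM at 3% to 4%, 1084 CPM at 9% to 10%, 1165 CPM at 10% to 12% and 140.3 CPM from 15% upward.

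Acrv1 and Spaca1 stood lower at the top of the range than at its bottom. Acrv1, the acrosomal antigen SP-10, stood at 542 (458 to 638) CPM at 3% to 4%, 493 (393 to 610.3) CPM at 5% to 6%, 249.8 (165 to 363) CPM at 7% to 8% and 103 (70.2 to 145) CPM at 9% to 10%. From 15% upward Acrv1 was at 39.9 (31.8 to 49.4) CPM. Spaca1, a membrane protein of the acrosome, stood at 498 CPM at 3% to 4%, 493 CPM at 5% to 6%, 196 CPM at 6% to 7% and 86.6 CPM at 9% to 10%. Acrv1 stood at 679.9 and 82.5 CPM at 3% to 4% and 9% to 10% in barcodes under 10000 UMIs, and at 435 and 115 CPM in deep ones. Spaca7, another acrosome gene, stood at 244 CPM at 3% to 4% and 356 CPM at 9% to 10%. The acrosome list as a whole was not followed across the bins. Among regulators, Crem stood at 269 (211 to 339) CPM at 3% to 4% and 160.4 (119 to 211) CPM at 9% to 10%. In barcodes under 10000 UMIs it stood at 193 (122 to 290) and 157 (94.4 to 245) CPM, within counting error of each other. In deep ones it stood at 329 (244 to 434) and 163 (111 to 231) CPM.

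Akap4, Gapdhs and Smcp stood higher toward the top of the range and beyond it. Akap4, the main scaffold of the fibrous sheath, stood at 1059 CPM at 3% to 4%, 1867 CPM at 9% to 10% and 3329 CPM from 15% upward. Gapdhs, the sperm form of a glycolytic enzyme, stood at 1698, 3445 and 7208 CPM at the same steps. Smcp stood at 3233, 6053 and 12237 CPM. Gapdhs stood at 1091 and 3731 CPM at 3% to 4% and 9% to 10% in barcodes under 10000 UMIs, and at 2173 and 3263 CPM in deep ones. Odf1, an outer dense fibre gene, moved less, with 598 (509 to 697) CPM at 3% to 4% and 741 (649 to 843) CPM at 9% to 10%. Ybx2, a protein that stores messages, stood at 447 (371 to 534) and 417 (348 to 495) CPM, within counting error of each other.

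**Figure D3:**
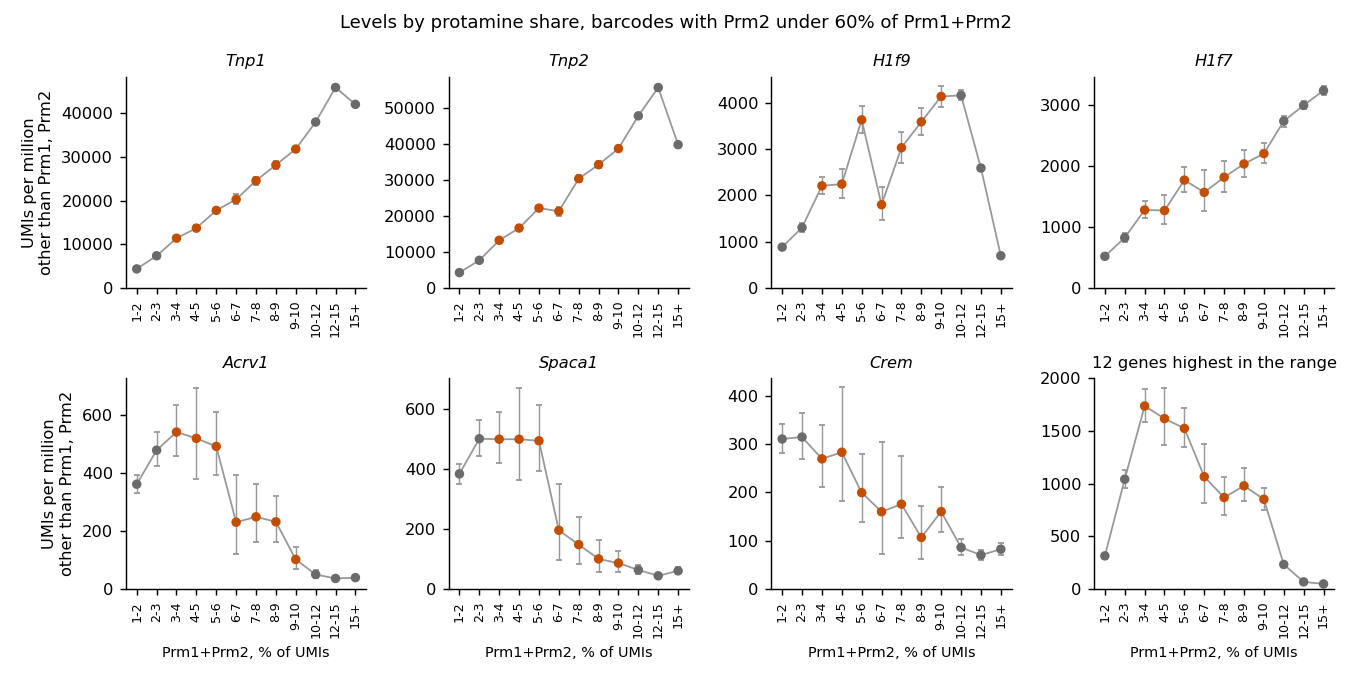
Level in UMIs per 1000000 UMIs other than Prm1 and Prm2 (y axes, from 0) by the share of UMIs from Prm1 and Prm2 (x axes, in percent, low to high), for barcodes with Prm2 under 60% of both. Orange points are bins inside the 3% to 10% range and grey points bins outside it. Bars are exact Poisson 95% intervals for counting error, and each bin pools shallower and deep barcodes. Acrv1 stands at 542 CPM at 3% to 4% and 103 CPM at 9% to 10%, while Tnp1 stands at 11385 and 31809 CPM.

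The first comparison asked how mid-protamine barcodes differ from low-protamine ones, which include spermatocytes, round spermatids and somatic cells. The members had more UMIs of nuclear packing, acrosome, outer dense fibre and X-linked spermatid genes, and fewer of axoneme, RNA polymerase II and meiotic genes. Against low-protamine barcodes with round spermatid markers, the acrosome list took 1.19% in the members and 1.10% in those barcodes. Of 14587 genes with at least 50 UMIs in both groups together, 2685 (18.4%) were at least 2-fold higher and 6537 (44.8%) at least 2-fold lower in mid-protamine barcodes. The median gene was lower by a log2 of −0.81. Relative to that median gene, 3887 genes were higher and 3305 lower. Because the rule cut the groups on a readout of the same cells, these counts are descriptions. Against only the 818 low-protamine barcodes with at least 5 UMIs of round spermatid markers, 1621 of 11727 genes (13.8%) were higher and 5773 (49.2%) lower, with a median log2 of −0.98.

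The 12 leading higher genes were Tbx5, Col15a1, Zc2hc1b, Sdc3, Acot12, Hemgn, Lmtk3, Calml4, Klc3, Fam71b, Glt6d1 and Prss51. Hemgn, known from blood cell formation, stood at 546 (507 to 586) [284] CPM in mid-protamine barcodes, against 14.6 (13 to 16.4) CPM in low-protamine barcodes, a log2 ratio of 5.22 (5.03 to 5.43). Acot12 stood at 51.7 [26.6] and 1.33 CPM. Hemgn was detected in 122 of the 250 barcodes. Fam71b stood at 624 (583 to 668) [374] and 18.9 (17.1 to 21) CPM, a log2 ratio of 5.04 (4.87 to 5.22). Tbx5, a T-box transcription factor known from heart and limb, stood at 60.4 (48.1 to 74.9) and 1.17 (0.744 to 1.76) CPM in 52 barcodes with a UMI. Klc3, a kinesin light chain of the sperm tail, stood at 152 (132 to 174) and 4.59 (3.69 to 5.65) CPM, and Prss51, a serine protease gene, at 223 (198 to 249) and 6.99 (5.87 to 8.27) CPM. Against the 818 low-protamine barcodes with round spermatid markers, these 12 genes had log2 ratios between 4.06 and 4.88. Those 818 barcodes are part of the group against which the genes were chosen, so this is no separate support.

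The 12 leading lower genes were Adad2, Ckap2, Smad1, Sap30, Speer1, Fbn2, Preb, Capn15, Ccdc114, Eif2b1, Lypd10 and Mrpl37. Adad2, a double-stranded RNA binding protein of germ cells, stood at 3.64 (1.18 to 8.49) CPM in mid-protamine barcodes, against 67.2 (63.6 to 70.9) CPM in low-protamine barcodes. Smad1, a signal transducer of bone morphogenetic proteins, stood at 3.64 (1.18 to 8.49) and 60.5 (57.1 to 64.1) CPM. Mrpl37, a mitochondrial ribosomal protein gene, stood at 5.82 (2.51 to 11.5) and 79.5 (75.6 to 83.5) CPM. Speer1 and Capn15 each had 1 UMI in the mid-protamine group. Lypd10 stood at 11.6 [18.2] against 159 CPM and Fbn2 at 6.55 [11.2] against 99.1 CPM, while Ckap2, Sap30, Preb and Ccdc114 had 4 UMIs or fewer in the members. All 12 stood higher in 52 low-protamine barcodes rich in somatic markers than in mid-protamine barcodes, for instance Adad2 at 13.3 (4.88 to 29.0) CPM and Mrpl37 at 35.5 (20.3 to 57.6) CPM. These values rest on 1 UMI (Speer1) to 16 UMIs (Mrpl37), and the 52 barcodes belong to the group against which the genes were chosen.

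The second comparison asked how mid-protamine barcodes differ from high-protamine ones. Of 8098 genes tested, 2729 (33.7%) were at least 2-fold higher and 120 (1.48%) at least 2-fold lower in mid-protamine barcodes, and the median gene was higher by a log2 of 0.66. Relative to that median gene, 981 genes were higher and 1156 lower. High-protamine barcodes had a median of 13.4% of their UMIs from Prm1 and Prm2, which are outside the CPM total. Prm1 and Prm2, which the rule used, stood at 37708 and 37332 UMIs per 1000000 others in mid-protamine, 1641 and 1401 in low-protamine and 89355 and 75546 in high-protamine barcodes, and Piwil1 at 80.8, 782 and 50.0. Among genes described below, the side on which mid-protamine barcodes lie is reversed relative to the median gene for Crem, Pdha2, Cycs, Rps12 and Rpsa against low-protamine barcodes. It is likewise reversed for H1f9, H2al3, Brdt, Cpeb3, Ccdc42, Dnah1, Rsph1, Ccny, Psma8, Ulk1, Rps3, Rpsa, Tbp and Med14 against high-protamine barcodes.

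The 12 leading higher genes were Osbpl7, Ercc5, Stk-ps2, Rap1gap, Samt3, Ppm1f, Mob3c, Cd46, Arhgap30, P2rx3, Lmtk3 and Zfhx2. Osbpl7, an oxysterol binding protein gene, stood at 141 (122 to 162) CPM in mid-protamine barcodes, against 7.52 (5.60 to 9.89) CPM in high-protamine barcodes, a log2 ratio of 4.23 (3.78 to 4.70). Samt3 stood at 39.3 [19.6] and 2.36 CPM. P2rx3, an ATP-gated ion channel gene, stood at 108 (91 to 127) and 7.82 (5.86 to 10.2) CPM. Ercc5, a DNA repair nuclease gene, stood at 43.7 (33.3 to 56.2) and 2.36 (1.35 to 3.83) CPM, but at 22.2 CPM in somatic-marker-rich barcodes. The 12 leading lower genes were C1qb, Unc45b, Klk1b9, Klk1b3, Klk1b4, Cby3, Klk1b5, C8g, Paqr5, Nfatc2, Cyp2a12 and St8sia3os. Paqr5, a membrane progestin receptor gene, stood at 598 (558 to 640.5) CPM in mid-protamine and 1419 (1391 to 1447) CPM in high-protamine barcodes, and Cby3 at 97.5 (81.7 to 115) and 238 (226 to 249.7) CPM. Both stood far lower in low-protamine barcodes, at 27.9 and 5.21 CPM. Klk1b3, Klk1b4, Klk1b5 and Klk1b9 are tissue kallikreins with near-identical copies, so reads may be split between them. C1qb, a complement gene that also marks macrophages, stood at 10.9 (6.11 to 18) [16.8] and 33.9 (29.7 to 38.6) CPM, and at 39.9 CPM in somatic-marker-rich barcodes.

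Genes that stood at least 2-fold above both neighbours came to 869 of 7759 tested in both comparisons (11.2%), and genes 2-fold below both to 12 (0.155%). The 12 leading ones, called peak genes here, were Osbpl7, Rap1gap, Samt3, Ppm1f, Cd46, Lmtk3, Mgat4f, Cd55, Slc36a3, Ppp1r18, Slc17a7 and Cd109. Cd55, which guards cells against complement, stood at 226 (202 to 253) [148] CPM in mid-protamine barcodes, 18 (16.1 to 19.9) CPM in low-protamine and 23 (19.5 to 26.9) CPM in high-protamine barcodes. Cd46, a complement regulator that rodents carry on the inner acrosomal membrane, stood at 88.8 (73.7 to 106), 5.46 (4.48 to 6.60) and 6.19 (4.46 to 8.37) CPM in the same order. Slc17a7, a vesicular glutamate transporter gene, stood at 142 (123 to 163), 6.33 (5.26 to 7.55) and 16.2 (13.3 to 19.6) CPM, and Mgat4f, of a family of glycosyltransferases, at 109 (92.4 to 128), 3.88 (3.06 to 4.86) and 10.5 (8.18 to 13.2) CPM. In all, 161 of the 250 barcodes had a UMI of a peak gene, and the barcode with most held 3.23% of these UMIs.

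The peak was not bounded by the range. Its 12 genes were chosen for high ratios over barcodes under 2% and at 10% or more, so low levels there follow from the choice. Among barcodes with Prm2 under 60%, the peak genes together stood at 316 CPM at 1% to 2%, 1043 CPM at 2% to 3%, just outside the range, 1738 CPM at 3% to 4%, 1526 CPM at 5% to 6%, 853 CPM at 9% to 10%, 235 CPM at 10% to 12% and 50.0 CPM from 15% upward. The decline within the range was that of the 146 barcodes under 10000 UMIs, which stood at 2611 (2328 to 2917), 1361 (1010.2 to 1794) and 396 (292 to 525) CPM at 3% to 4%, 5% to 6% and 9% to 10%. The deep barcodes, 9, 7 and 10 at these steps, stood at 1054 (897 to 1230.2), 1571 (1366 to 1799) and 1144 (997 to 1306) CPM, so their level was not lower at the top of the range than at its bottom. In 52 low-protamine barcodes rich in somatic markers the peak genes stood at 133 CPM. Ppp1r18 stood at 62.1 CPM and Osbpl7 at 44.4 CPM there, against 46.6 and 141 CPM in mid-protamine barcodes, so the level of Ppp1r18 was not above that of other cells. The count of 869 was 546 without the 39 deepest members and 891 with them alone, and 529 against low-protamine barcodes with round spermatid markers. It was 557 by the mean of barcode shares, which weighs every barcode alike. With every barcode thinned to 2000 UMIs it was 225. There fewer genes reach the minimum count and barcodes also weigh alike, and the part of each was not tested.

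**Figure D4:**
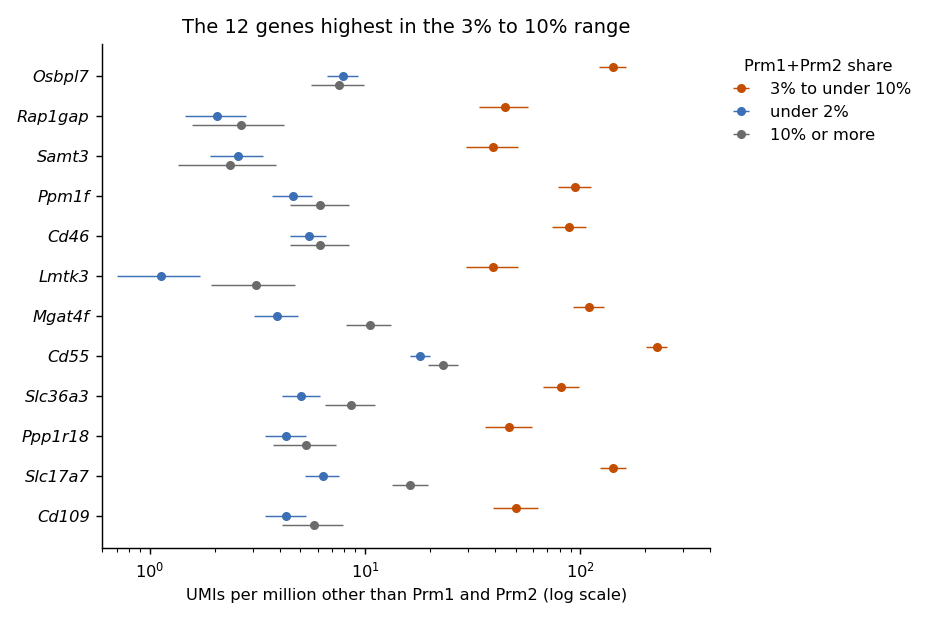
Level of the 12 peak genes in UMIs per 1000000 UMIs other than Prm1 and Prm2 (x axis, log scale), with 1 gene per row. Points are mid-protamine (top of each row), low-protamine and high-protamine barcodes, with exact Poisson 95% intervals for counting error. Cd55 stands at 226 [148], 18 and 23 CPM.

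Gene groups are given by their members tested, those at least 2-fold higher and lower, and the median log2 ratio, beside the all-gene values above (18.4% higher, 44.8% lower, median −0.81 against low-protamine barcodes; 33.7%, 1.48% and 0.66 against high-protamine barcodes). Of all genes tested in both comparisons, 11.2% stood higher than both neighbours. Without the deep members, 2480 of 14371 genes were higher and 5270 lower than in low-protamine barcodes. In that setting 2858 of 7580 genes were higher and 213 lower than in high-protamine barcodes. Genes of nuclear condensation other than Prm1 and Prm2 were higher than in low-protamine barcodes in 12 of 13 cases, with a median log2 of 3.38. Against high-protamine barcodes, 2 of 13 were higher and 0 lower, with a median of −0.59, and 7 were lower relative to the median gene. Without the deep members 2 were lower than in high-protamine barcodes. Against low-protamine barcodes with round spermatid markers, 10 of 13 were higher (median 2.12). They took 5.41% of UMIs other than Prm1 and Prm2 in the members, against 0.319% in low-protamine and 9.36% in high-protamine barcodes. Within the members the share was 1.64% in Prm2-weighted barcodes and 6.09% in the others. Tnp2 stood at 23026 (22773 to 23281) CPM in mid-protamine, 879.6 (867 to 893) CPM in low-protamine and 41727 (41573 to 41881) CPM in high-protamine barcodes, and Tnp1 at 19147 (18916 to 19379), 925 (912 to 939) and 37007 (36862 to 37152) CPM. Spata46, which helps shape the sperm nucleus, and Actl7b, an actin-like protein, were the 2 members higher than in high-protamine barcodes, at 473 [255] and 438 [291] CPM, against 93.4 and 132 CPM. H1f9 stood at 2773 [1909], 266 and 1999 CPM in mid-protamine, low-protamine and high-protamine barcodes. The 39 deep members stood at 3709 (3563 to 3859) CPM and the other 211 at 1909 (1809 to 2013) CPM, below high-protamine barcodes. All 65 Prm2-weighted barcodes are among the 211 and none among the deep members, so this split does not separate depth from kind. H1f7 stood at 1614, 112 and 2734 CPM in the same groups.

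Of the histone exchange genes, 3 of 24 were higher and 12 lower than in low-protamine barcodes (median −0.93), near the shares and median of all genes. Relative to the median gene 7 were higher and 5 lower. Against high-protamine barcodes 7 of 21 were higher. The 3 higher than in low-protamine barcodes were Cdyl, a chromodomain corepressor, at 654 CPM against 49.3 CPM, Chd5, a remodeller needed for histone removal, at 287 against 56.5 CPM, and Camk4, a kinase that acts on protamine 2, at 116 against 18.8 CPM. Brdt, the testis bromodomain protein, stood at 116 (99.1 to 136) CPM in mid-protamine barcodes and 296 (288 to 303) CPM in low-protamine barcodes. Ep300, a histone acetyltransferase, stood at 54.6 CPM against 4.87 CPM in high-protamine barcodes, the largest ratio of the list in that comparison, and Ybx2 at 437, 916 and 555 CPM in mid-protamine, low-protamine and high-protamine barcodes. Rnf8, a ubiquitin ligase acting on histones, had 1 UMI in the members, against 14.4 CPM in low-protamine barcodes.

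Among transcription regulators of spermatids, 10 of 27 were higher and 5 lower than in low-protamine barcodes (median −0.21), and 11 of 21 were higher than in high-protamine barcodes (median 1.09). Fhl5, the coactivator ACT of CREM, stood at 641 (599 to 685) [412] CPM in mid-protamine, 53.4 (50.3 to 56.8) CPM in low-protamine and 279.8 (267 to 293) CPM in high-protamine barcodes. Crem itself stood at 191 (168 to 215), 221 (215 to 228) and 82.4 (75.8 to 89.6) CPM. Tbpl1, a TBP-like factor of spermatids, stood at 124, 507 and 71.8 CPM. The outer ratios of the list belonged to Zfp42, a zinc finger gene, with 5.09 [8.40], 45 and 2.80 CPM in that order, to Hsfy2, a heat shock factor of the testis, with 124 [71.4], 29.1 and 19.5 CPM, and to Rfx3, with 32.7, 15.7 and 33.8 CPM. Against low-protamine barcodes with round spermatid markers, 4 of 26 regulators were higher and 9 lower, beside 13.8% and 49.2% of all genes. Genes for storage and translation of stored messages were higher than in low-protamine barcodes in 5 of 30 cases and lower in 18, and 9 of 29 were higher than in high-protamine barcodes (3 higher and 3 lower relative to the median gene). Pabpc1, the main poly(A) binding protein, stood at 1225, 3345 and 436 CPM, and Paip2, its inhibitor, at 727, 172 and 1225 CPM. Cpeb3, a binder of messages, stood at 77.1, 10.3 and 65 CPM, Pabpc6 at 121 [203], 841 and 66.7 CPM and Nxf2, an export factor, at 22.6 [19.6], 20.5 and 4.72 CPM.

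Acrosome genes were higher than in low-protamine barcodes in 23 of 45 cases and lower in 12, and higher than in high-protamine barcodes in 24 of 42. Higher than both were 16 of 42, beside 11.2% of all genes. Without the deep members 9 of 42 were higher than both, where the count over all genes was 546 instead of 869. Against low-protamine barcodes with round spermatid markers, 5 of 45 were higher and 13 lower (median −0.20), beside 13.8% and 49.2% of all genes (median −0.98). Acrv1 stood at 299.8, 99.1 and 45.9 CPM in mid-protamine, low-protamine and high-protamine barcodes, and at 276 CPM in low-protamine barcodes with round spermatid markers. Eqtn (equatorin) stood at 133 (115 to 154) CPM in mid-protamine, 39.7 (37 to 42.6) CPM in low-protamine and 19 (15.9 to 22.6) CPM in high-protamine barcodes, and Izumo1, the sperm protein that binds the egg, at 140.4 (121 to 162), 33.8 (31.3 to 36.5) and 22.6 (19.1 to 26.4) CPM. Prss37, a protease-like protein, stood at 421, 16.7 and 167 CPM. The 12 lower members included Adam2, which is also among the spermatocyte markers counted below, at 106 against 445 CPM. Zpbp2 stood at 103 [161] against 397 CPM. Why these genes stood lower was not tested. Gopc, a Golgi protein needed for acrosome formation, had the lowest ratio, at 7.28 against 48.2 CPM. Crisp2, a sperm head and tail protein, stood at 2456, 1766 and 3993 CPM in mid-protamine, low-protamine and high-protamine barcodes. The round spermatid markers, some of which are in this list too, were higher than in low-protamine barcodes in 15 of 19 cases. They were higher than in both neighbours in 11 of 18, beside 11.2% of all genes. Against the narrower low-protamine group, which these markers chose, 5 of 19 were higher and 4 lower.

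Outer dense fibre and fibrous sheath genes were higher than in low-protamine barcodes in 20 of 35 cases and lower in 5 (median 1.41), and 13 of 35 were higher than in high-protamine barcodes (median 0.15). Relative to the median gene, 4 were higher and 13 lower than in high-protamine barcodes (median −0.51). Akap4 stood at 1709 (1640.2 to 1779) CPM in mid-protamine, 153 (148 to 159) CPM in low-protamine and 2944 (2904 to 2986) CPM in high-protamine barcodes, and Gsg1 at 4904, 412 and 8877 CPM. Odf1 stood at 863, 158 and 1177 CPM, Odf3b at 65.5, 3.06 and 126 CPM and Ccdc42 at 26.9, 117 and 17.8 CPM. Against low-protamine barcodes with round spermatid markers, 15 of 35 were higher and 8 lower. Axoneme genes, for the microtubule core of the tail, were higher than in low-protamine barcodes in 0 of 40 cases and lower in 24 (median −1.48). Against high-protamine barcodes, 10 of 39 were higher. Without the deep members it was 24 of 39, beside 2858 of 7580 genes in all. Rsph1, of the radial spokes, stood at 415, 2649 and 285 CPM, and Dnah8, an outer dynein arm gene, at 319 [503], 2279 and 195 CPM. Dnah1 and Dnah3, of the inner dynein arms, stood at 22.6, 164 and 15.5 CPM and at 89.5, 64.9 and 28.3 CPM, and Tsga10ip at 175 [143], 159 and 225 CPM. Genes of the manchette, the microtubule skirt that shapes the head, were higher in 13 of 32 cases and lower in 11, and 6 of 30 were higher than in high-protamine barcodes (3 higher and 6 lower relative to the median gene). Spem1, needed to shed cytoplasm, stood at 477, 38.6 and 819.9 CPM. Spata6, of the connecting piece between head and tail, stood at 1456, 350.1 and 2715 CPM and Ift20, of intraflagellar transport, at 37.1, 196 and 17.7 CPM.

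Glycolysis isozymes were higher than in low-protamine barcodes in 9 of 25 cases and lower in 7, and mitochondrial sheath genes in 6 of 27 and 13. Against high-protamine barcodes, 6 of 23 and 10 of 27 were higher. Relative to the median gene, 2 glycolysis genes were higher and 11 lower (median −0.92), and 1 mitochondrial sheath gene was higher and 5 lower. Gapdhs stood at 3260.1 (3165 to 3357) CPM in mid-protamine, 283 (275 to 290.1) CPM in low-protamine and 6278 (6218 to 6338) CPM in high-protamine barcodes, whereas Ldha, the somatic lactate dehydrogenase, stood at 348, 924 and 186 CPM. Smcp stood at 7026 (6886 to 7168), 654 (643 to 665) and 11555 (11474 to 11636) CPM, and Cox8c, a testis subunit of cytochrome oxidase, at 513, 2262 and 316 CPM. The outer ratios belonged to the glucose transporter Slc2a3 (132 [207], 1176 and 79.1 CPM), the monocarboxylate transporter Slc16a7 (503 [335], 124.5 and 142 CPM), Spata18 (930.0, 63.1 and 1437 CPM), the testis cytochrome c Cyct (38.6 [63], 255 and 22.4 CPM) and the testis pyruvate dehydrogenase subunit Pdha2 (132, 191 and 31.9 CPM). Kinases and phosphatases of spermatids were higher in 12 of 30 cases and lower in 9, and 3 of 29 were higher than in high-protamine barcodes (2 higher and 7 lower relative to the median gene). Tssk2, a testis serine kinase, stood at 1217, 130.3 and 1674 CPM. Tssk6 stood at 1148, 68.3 and 1809.9 CPM, Dusp21, a phosphatase, at 62.6, 4.08 and 10.9 CPM and Prkar2a, a regulatory subunit of protein kinase A, at 272, 20.4 and 476 CPM. Ccny, a cyclin, stood at 8.73, 59.9 and 6.78 CPM.

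Ubiquitin and proteasome genes were higher than in low-protamine barcodes in 16 of 37 cases and lower in 9, and 5 of 35 were higher than in high-protamine barcodes (1 higher and 11 lower relative to the median gene). Rnf151, a ring finger protein of the acrosome, stood at 1519 [802] CPM in mid-protamine, 169 CPM in low-protamine and 439 CPM in high-protamine barcodes, and Ube2n, a ubiquitin-conjugating enzyme, at 1573, 241 and 2389 CPM. Fbxo39, an F-box protein, stood at 171 [102], 7.76 and 91.6 CPM, Ubqlnl at 276, 17.4 and 487 CPM and Psma8, a proteasome subunit of meiotic cells, at 35.7 [57.4], 389.9 and 30.2 CPM. Autophagy genes were higher in 4 of 20 cases and lower in 7, and 4 of 15 were higher than in high-protamine barcodes (0 higher and 7 lower relative to the median gene, median −0.59). Gabarapl1, of the autophagosome membrane, stood at 1089, 111 and 2147 CPM. Spem2 stood at 436, 30.1 and 645 CPM, Cycs, the somatic cytochrome c, at 42.2 [53.2], 51.7 and 14.7 CPM and Ulk1, a kinase that starts autophagy, at 2.18, 12.1 and 1.47 CPM. Ribosomal protein genes were higher in 0 of 37 cases and lower in 14, with a median of −0.85 near that of all genes. Without the deep members 22 were lower, beside 5270 of 14371 genes in all. Against high-protamine barcodes, 4 of 35 were higher, and 1 was higher and 11 lower relative to the median gene. Without the deep members 1 of 34 was higher than in high-protamine barcodes, beside 2858 of 7580 genes in all. Rps3 stood at 40.8, 327 and 27.3 CPM, Rpsa at 354, 400.02 and 269 CPM, Rpl10 at 21.1, 44.9 and 4.28 CPM and Rps12 at 550.1, 626 and 860.0 CPM. RNA polymerase II and export genes were higher in 1 of 32 cases and lower in 21 (median −1.99), and 12 of 21 were higher than in high-protamine barcodes. Polr2a, the catalytic subunit of the polymerase, stood at 33.5 (24.5 to 44.6), 151 (145 to 156) and 12.1 (9.62 to 15) CPM. Polr2g stood at 4.37 [2.80], 49.5 and 5.60 CPM, Taf7 at 30.6, 74.7 and 4.57 CPM, Tbp, the TATA-binding protein, at 10.2, 79.3 and 8.41 CPM and Med14, of the mediator complex, at 7.28, 2.35 and 5.16 CPM.

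**Figure D5:**
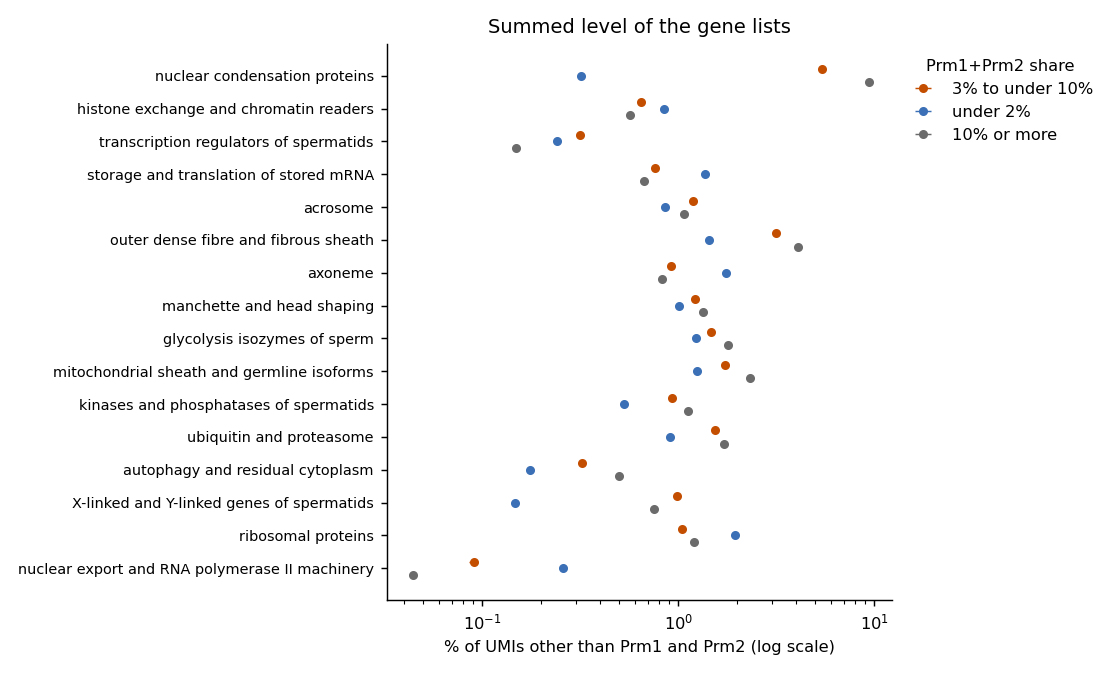
Summed level of each gene list as a percentage of UMIs other than Prm1 and Prm2 (x axis, log scale), with 1 list per row. Points are mid-protamine (top of each row), low-protamine and high-protamine barcodes, with exact 95% intervals for counting error that are mostly smaller than the points. Nuclear condensation genes other than Prm1 and Prm2 take 5.41%, 0.319% and 9.36%. The row of X-linked and Y-linked genes also sums 4 autosomal genes.

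The X chromosome is silenced in meiosis, and some of its genes are expressed again in spermatids. X-linked genes took 1.80% of UMIs other than Prm1 and Prm2 in mid-protamine barcodes (1.78% to 1.82%), 0.502% in low-protamine and 1.85% in high-protamine barcodes. Of the X-linked genes tested, 130 of 407 (31.9%) were higher and 52 lower than in low-protamine barcodes (median log2 0.08). Of 13923 autosomal genes, 2499 (17.9%) were higher and 6407 lower (median −0.85). Against high-protamine barcodes, 71 of 164 X-linked genes (43.3%) were higher and 2 lower, beside 33.5% higher and 114 lower of 7853 autosomal genes. The median log2 in that comparison was 0.58 for X-linked and 0.67 for autosomal genes. Y-linked genes took 0.0202%, 0.0153% and 0.0113% of these UMIs in mid-protamine, low-protamine and high-protamine barcodes. In the list of X-linked and Y-linked spermatid genes, 37 of 41 genes found lie on those chromosomes in the RefSeq table, and the autosomal Gk2, Cypt4, Cypt12 and 1700008O03Rik were left out. Of the rest, 14 of 24 were higher and 2 lower than in low-protamine barcodes, and 7 of 16 were higher than in high-protamine barcodes. Tsga8, which encodes a spermatid nuclear protein, stood at 771 (725 to 818) [462], 207 (201 to 214) and 174 (164 to 184) CPM in mid-protamine, low-protamine and high-protamine barcodes. H2al3 stood at 392 [308], 16.6 and 355 CPM, Fthl17a, a ferritin-like gene, at 37.8 [23.8], 9.90 and 5.01 CPM, Cypt14 at 16.7, 1.02 and 31.7 CPM and Rhox13, a homeobox gene, at 3.64 [1.40], 11.5 and 1.03 CPM. Against low-protamine barcodes with round spermatid markers, 9 of 23 were higher and 4 lower. Cypt4 and Cypt12, autosomal genes of the same multicopy family as Cypt1, stood at 2099 [1176] and 2288 CPM in mid-protamine, 172 and 164 CPM in low-protamine and 678 and 1417 CPM in high-protamine barcodes.

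Markers of other cells were counted in the same barcodes. All 15 markers of pachytene and diplotene spermatocytes were detected in mid-protamine barcodes, at 1706 CPM together (2191 CPM without the deep members), against 5797 CPM in low-protamine and 1500.0 CPM in high-protamine barcodes. Of 14 Sertoli markers, 13 were detected and Amh was at 0. They stood at 461 CPM in mid-protamine, 514 CPM in low-protamine and 168 CPM in high-protamine barcodes, from 0% to 1.34% of the UMIs of a mid-protamine barcode. The mid-protamine barcode with most, which had 16986 UMIs and a protamine share of 6.86%, held 184 UMIs of Sertoli, Leydig, myeloid and stromal markers, the next highest had 38, and 19 had at least 5. Without barcodes of at least 5 such UMIs in any group, 2552 genes were higher and 6318 lower than in low-protamine barcodes. Leydig markers came to 13 UMIs from 4 of 9 genes, myeloid markers to 34 UMIs from 3 of 10 genes with Adgre1, Cd68 and C1qa at 0, and stromal markers to 47 UMIs from 9 of 14. Of the red blood cell markers, the 4 globin genes were at 0. Free RNA was gauged in 52 low-protamine barcodes with at least 50 UMIs of somatic markers, where Prm1 and Prm2 took a median of 0.368% of UMIs, Tnp1 stood at 1300 CPM and Acrv1 at 46.6 CPM. Tnp2 stood at 1082 CPM in these barcodes and 879.6 CPM in all low-protamine ones, Akap4 at 204 and 153, Odf1 at 208 and 158 and Gapdhs at 288 and 283 CPM. Their low-protamine levels were thus not above those of barcodes rich in somatic markers. Smcp (588 and 654 CPM) and H1f9 (180 and 266 CPM) stood lower in these barcodes. With 10% of the WT profile taken off each group, 2600 genes stood higher and 6803 lower than in low-protamine barcodes, and 853 stood above both neighbours. The part of doublets in the mid-protamine values was not tested.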

How the data were processed

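Single cells of whole testis were profiled in 1 WT and 1 RAD21L KO library. The authors deposited unnormalized UMI counts for each gene in each barcode. Cell Ranger 6.1.2, GRCm39 and Seurat 4.3 are listed in the submitters' processing notes, without their roles. No barcode list of cell types was used here, and doublets were not called. From the counts, UMIs were summed over the barcodes of each group and divided by the UMIs other than Prm1 and Prm2. Genes with at least 50 UMIs in both groups together were compared, and a sum under 3 was set to 3. A 2-fold ratio was called, with no test, since each genotype had 1 library. The members, gene lists and comparisons were chosen with earlier results of these data known. Named genes were the 12 of largest ratio in each direction among annotated genes with at least 50 UMIs in the group where they were higher, together with some set genes and the genes of outermost ratio in each list. Other list members were named after their values were seen. Steps were tested on simulated counts. Python 3.11.15, NumPy 2.4.6, pandas 2.3.3, SciPy 1.17.1 and Matplotlib 3.10.9 were used. Promoter sequences and coordinates came from a RefSeq table of GRCm38.p6, so they were not set beside coordinates of the files. Depth was 33096309 UMIs in the WT and 28001992 in the RAD21L KO library.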

Additional observations from a re-analysis of the deposited data

How the results depend on the processing

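No paired analysis was possible because each genotype had 1 library. The group held 433 barcodes from at least 1000 UMIs, 106 from at least 4000, 91 with a protamine share of 4% to 8%, 426 with 2% to 10%, and 39 of at least 10000 UMIs. Genes higher than in low-protamine barcodes came to 1149 after thinning to 2000 UMIs, 1621 against those with round spermatid markers and 4633 with a minimum of 1 UMI, beside 2685. Genes lower came to 4224 thinned and 3305 relative to the median gene, beside 6537. Genes higher than in high-protamine barcodes came to 4111 for the 2% to 10% range, 1215 thinned, 981 relative to the median gene and 7638 with a minimum of 1 UMI, beside 2729. Genes lower came to 263 for 4% to 8%, 244 for 2% to 10%, 187 by the mean of barcode shares, 74 with all UMIs as the total, 1156 relative to the median gene, 233 without Prm2-weighted members, 213 for members under 10000 UMIs and 391 for those above, beside 120. Genes higher than both came to 557 by the mean of barcode shares (483 of them among the 869), 225 thinned (204), 529 against low-protamine barcodes with round spermatid markers (511), 2383 with a minimum of 1 UMI (869) and 546 for members under 10000 UMIs (482). The settings by Prm2 weighting and by member depth were chosen after seeing the data. Klk1b5 reversed when thinned, with a log2 of 0.19 over high-protamine barcodes. Of 4837 values of named genes over 20 settings, 3265 stayed within their counting interval, 1571 moved and 1 reversed. Thinning and the minimum of 1 UMI change by construction how many genes are tested. Thinning also weighs every barcode alike, as the mean of barcode shares does. The cause of the changes was not tested for any setting. With 1 library per genotype, no spread between mice is known, and a gene near 50 UMIs over 250 barcodes is known only to its counting interval.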
